A study of Mus musculus with 27 samples.

Results

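The 33 genes described here belong to endoplasmic reticulum (ER) protein folding and the unfolded protein response, and they were followed in the livers of HGFAC-KO mice and their littermate controls on 2 diets. They were taken by gene symbol from a list of names that was drawn up with earlier results of these data known, and all 33 were found among the 23191 gene symbols of the count table. Liver polyadenylated RNA was sequenced from 27 male C57BL/6J mice that were 8 weeks old when the diets began, and the livers were taken after 4 weeks. HGFAC is a protease that hepatocytes secrete and that activates hepatocyte growth factor, and the knockout was a whole-body germline deletion made with CRISPR/Cas9 that removed part of the first exon and the whole of the next. The 4 groups were controls on chow (7 mice), HGFAC-KO mice on chow (6), controls on a high-fat/high-sucrose diet (HF/HS, 7) and HGFAC-KO mice on HF/HS (7), with 1 library from each mouse. The design asked how the diet, the genotype and their combination changed hepatic mRNA.

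Proteins that are secreted or sit in membranes fold in the ER, where chaperones, disulfide isomerases and glycan-binding lectins hold them until they are mature, and hepatocytes carry a heavy load of such cargo. When unfolded proteins build up, 3 membrane sensors respond: IRE1alpha, encoded by *Ern1*, splices the *Xbp1* mRNA; ATF6 is cut to release a transcription factor; and PERK, encoded by *Eif2ak3*, phosphorylates eIF2alpha, which slows translation and favors that of *Atf4*. ATF6 and spliced XBP1 drive chaperones and the machinery of ER-associated degradation, whereas ATF4 drives amino acid synthesis genes and the stress genes *Ddit3*, *Trib3* and *Chac1*. Gene-level counts show neither *Xbp1* splicing nor the phosphorylation of eIF2alpha.

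Promoter sequences are shown first, because the elements that ER stress factors bind are known for these genes. Promoters from RefSeq (GRCm38.p6), each spanning 250 bases before to 50 after the transcription start, were matched for 29 of the 33 genes, and 4 motifs were searched on both strands. The ER stress response element (ERSE), to which ATF6 binds together with NF-Y, was searched as CCAAT, 9 bases of any kind and CCACG. ERSE-II was searched as ATTGG, 1 base of any kind and CCACG, the unfolded protein response element (UPRE) as TGACGTGG, and the C/EBP-ATF response element (CARE), to which ATF4 binds, as TGATGNAAN. ERSE was present in the promoters of 9 of the 29 genes, namely *Hspa5*, *Hsp90b1*, *Dnajc3*, *Calr*, *Canx*, *Creld2*, *Pdia6*, *Syvn1* and *Derl3*, and in 0.119% of all 32851 promoters of this length. ERSE-II was found at *Dnajb11* and *Herpud1* (0.0365% of all promoters). CARE was found at *Asns*, *Chac1*, *Trib3* and *Herpud1* (3.95% of all promoters), and these letters of UPRE were in none of the members' promoters (0.676% of all promoters). No ERSE motif overlapped a CARE motif. The promoters below show ERSE at *Hspa5* and, in both orientations, at *Hsp90b1*. They also show CARE at *Asns* and *Trib3*, and ERSE-II and CARE at *Herpud1*. Capitals mark the motif matches.
Hspa5 (chr2:34771840-34772139, plus strand): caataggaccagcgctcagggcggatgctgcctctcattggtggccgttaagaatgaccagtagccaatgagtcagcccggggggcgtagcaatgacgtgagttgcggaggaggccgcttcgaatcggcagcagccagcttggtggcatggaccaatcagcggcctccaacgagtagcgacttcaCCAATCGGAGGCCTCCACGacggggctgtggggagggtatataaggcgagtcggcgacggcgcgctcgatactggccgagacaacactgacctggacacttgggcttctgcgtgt
Hsp90b1 (chr10:86705395-86705694, minus strand): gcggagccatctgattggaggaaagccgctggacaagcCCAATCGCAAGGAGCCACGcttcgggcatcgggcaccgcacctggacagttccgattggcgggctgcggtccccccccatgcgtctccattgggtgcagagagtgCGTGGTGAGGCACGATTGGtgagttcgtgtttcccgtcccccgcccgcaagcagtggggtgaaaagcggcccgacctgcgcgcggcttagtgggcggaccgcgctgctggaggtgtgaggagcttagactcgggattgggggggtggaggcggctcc
Asns (chr6:7693160-7693459, minus strand): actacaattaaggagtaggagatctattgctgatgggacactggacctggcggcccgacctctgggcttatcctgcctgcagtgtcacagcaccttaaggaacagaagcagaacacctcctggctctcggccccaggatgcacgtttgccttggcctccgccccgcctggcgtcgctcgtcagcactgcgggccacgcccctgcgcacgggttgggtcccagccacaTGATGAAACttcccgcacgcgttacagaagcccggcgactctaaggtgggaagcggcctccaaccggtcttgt
Trib3 (chr2:152344011-152344310, minus strand): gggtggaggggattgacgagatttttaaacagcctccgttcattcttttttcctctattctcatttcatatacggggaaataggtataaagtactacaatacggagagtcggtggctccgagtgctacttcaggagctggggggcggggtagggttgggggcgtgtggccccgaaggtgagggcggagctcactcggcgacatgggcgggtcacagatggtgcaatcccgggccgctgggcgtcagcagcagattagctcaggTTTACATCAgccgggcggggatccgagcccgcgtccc
Herpud1 (chr8:94386179-94386478, plus strand): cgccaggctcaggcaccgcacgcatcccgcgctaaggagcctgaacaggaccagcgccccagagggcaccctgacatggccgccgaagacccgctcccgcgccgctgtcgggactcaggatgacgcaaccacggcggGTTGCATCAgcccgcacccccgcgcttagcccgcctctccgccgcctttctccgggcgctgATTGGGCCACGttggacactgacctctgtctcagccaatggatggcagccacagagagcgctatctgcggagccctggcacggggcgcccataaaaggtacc
A match of letters describes the sequence, and binding was not measured. At *Hsp90b1*, the ERSE in the direction of the gene began 212 bases before the start and the reversed one began 107 bases before it. The ERSE at *Hspa5* began 65 bases before the start, the ERSE-II at *Herpud1* 52 bases before it, and the CARE at *Asns* 23 bases before it.

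**Figure D1:**
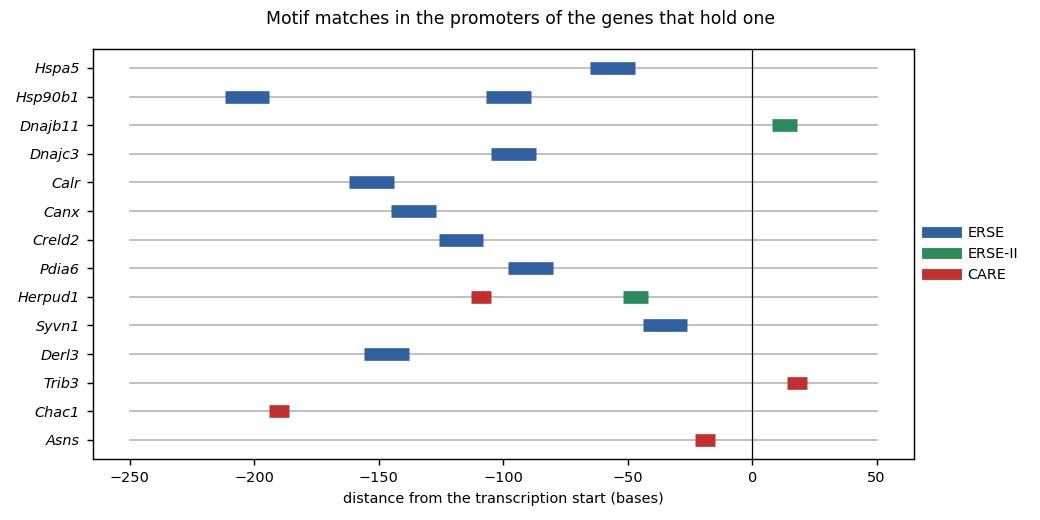
Positions of motif matches in the RefSeq promoters of the 14 member genes that hold one, in bases from the transcription start (vertical line); grey lines are the promoters, from 250 bases before to 50 after the start, and colored blocks are ERSE, ERSE-II and CARE matches. ERSE lies in chaperone and degradation genes and CARE in 3 genes of the ATF4 arm and *Herpud1*.

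The libraries held 36056177 to 57298657 counts each, and the share of counts on unnamed features was 4.13% to 12.1%. *Hgfac* mRNA was lower in every KO mouse than in every control mouse on the same diet (two-sided exact permutation p = 0.000583 on each diet, the smallest these group sizes allow). Hepatocyte markers were abundant, with *Alb* at 66719 CPM (counts scaled to a common library size) on average, and 11 of 12 pancreatic acinar markers were under 0.1 CPM. Of the 5 plasma cell markers analysed, *Tnfrsf17* was under 0.1 CPM and 2 averaged at least 1 CPM, with *Sdc1*, which hepatocytes also express, at 350 CPM. Because these are pieces of whole liver, fewer cells of a type and less RNA per cell cannot be told apart. For livers in which triglycerides were measured, the study gives an overnight fast and then refeeding, and the feeding state of the sequenced livers is not given in the sources used here.

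The 14 chaperones and folding enzymes were among the most abundant messages of the liver, and the ATF4 arm ran from well expressed (*Atf4*) to the lowest of the 33 (*Chac1*). Per kilobase of exon in chow-fed controls, *Hspa5*, which encodes the central ER chaperone BiP, stood at 1203 ± 146 CPM per kb (SD, n = 7), above 99.7% of all genes. *Hsp90b1*, which encodes GRP94, followed at 873 ± 99.0, and calreticulin (*Calr*), a lectin chaperone, at 643 ± 59.3 CPM per kb. *Creld2* (451 ± 92.0) and *Pdia4* (447 ± 88.7 CPM per kb) did not differ beyond their spread. Among the sensors and the factor that IRE1alpha controls, *Xbp1* stood at 91.2 ± 5.07, *Atf6* at 10.5 ± 1.32, *Ern1* at 5.53 ± 0.552 and *Eif2ak3* at 4.94 ± 0.708 CPM per kb. *Atf4* stood at 49.6 ± 6.43 and its target *Ddit3* at 21.4 ± 5.56 CPM per kb, above 93.8% and 87.4% of all genes. Its targets *Asns* (3.27 ± 1.35), *Trib3* (2.97 ± 0.754) and *Chac1* (0.418 ± 0.264 CPM per kb) lay at the foot of the order together with *Ppp1r15a* (3.13 ± 0.233), whose product recruits the phosphatase that resets eIF2alpha. *Asns*, *Ppp1r15a* and *Trib3* did not differ beyond their spread.

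With edgeR, 1 of the 33 genes differed past the threshold under the HF/HS diet and none with loss of HGFAC, and DESeq2 called *Rrbp1* with loss of HGFAC on chow. With the quasi-likelihood test of edgeR, adjusted over all genes tested by Benjamini-Hochberg, 1 of the 33 genes passed an adjusted p of 0.05 when HF/HS was compared with chow in controls, where 10.5% of all 13525 genes passed. That gene was *Ern1*, and it was higher on HF/HS. None of the 33 passed in HGFAC-KO mice on HF/HS against chow (5.89% of all genes passed), in KO against control on chow (0.00737%), in KO against control on HF/HS (0.0148%), or for the interaction of genotype and diet (0%). At an unadjusted p under 0.05 the counts were 8, 3, 1, 1 and 0 of the 33 in these 5 comparisons, beside 25.4%, 22.4%, 5.98%, 9.64% and 3.63% of all genes tested. The diet comparisons share no mice with each other, but each shares its mice with a genotype comparison. With DESeq2, the members past 0.05 were 3 in the controls' diet comparison (*Derl1*, *Ern1* and *Asns*, beside 14.3% of all genes with an adjusted p), 1 in the KO diet comparison (*Atf4*, beside 10.3%) and 1 for KO against control on chow (*Rrbp1*, beside 0.652%). In the other 2 comparisons 0 members passed, beside 55 of all 13544 genes for KO against control on HF/HS and 0 of 13927 for the interaction.

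**Figure D2:**
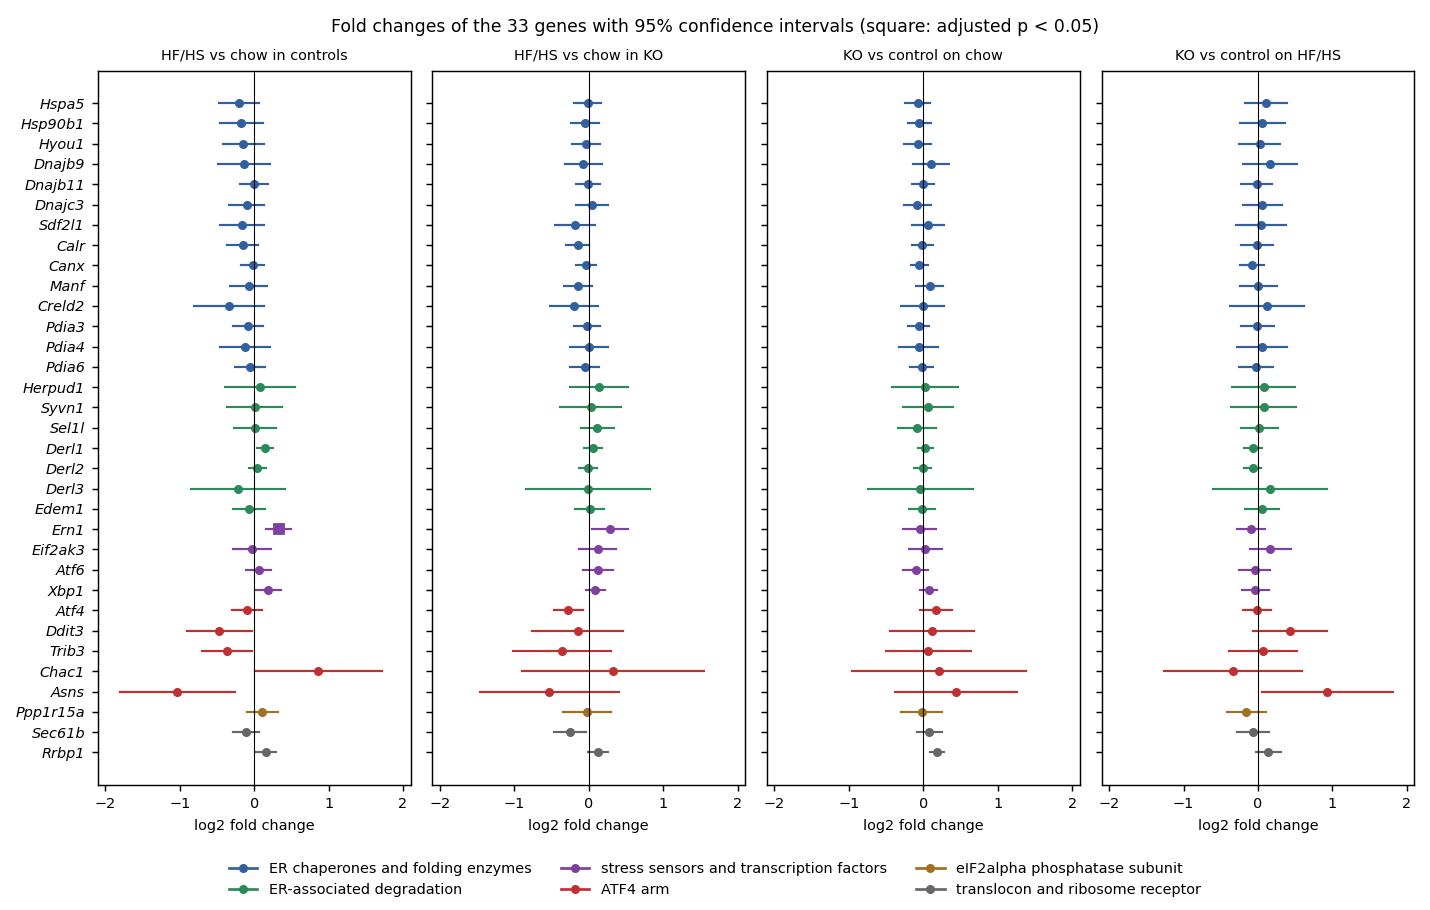
Log2 fold changes (points) with 95% confidence intervals (lines) of the 33 genes, colored by role, in the 4 comparisons of 2 groups; a square marks an adjusted p under 0.05 by edgeR. *Ern1* in controls on HF/HS against chow is the 1 square, most chaperones have narrow intervals around 0, and the widest intervals in each comparison are those of *Chac1*, *Asns* and *Derl3*.

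The chaperones and folding enzymes differed little between groups. *Hspa5* (chr2:34771970-34777547, plus strand) ranged from 4256 to 5707 CPM in chow-fed controls (median 5212), from 4576 to 5194 in chow-fed KO mice (median 4740), from 2852 to 5901 in controls on HF/HS (median 4411) and from 3883 to 5721 CPM in KO mice on HF/HS (median 4814). The 4 ranges overlapped, and the widest, in controls on HF/HS, held both the lowest and the highest mouse of all 27. The log2 fold change of *Hspa5* on HF/HS against chow was -0.20 in controls (95% interval -0.47 to 0.07, edgeR adjusted p = 0.353, two-sided exact permutation p = 0.147) and -0.01 in KO mice (-0.20 to 0.17, edgeR adjusted p = 0.948). For KO against control it was -0.08 on chow (-0.24 to 0.08, edgeR adjusted p = 0.851) and 0.10 on HF/HS (-0.18 to 0.39, edgeR adjusted p = 0.842). With 1 mouse omitted, the value on chow ran from -0.12 (without control Chow mouse 4) to -0.05 (without control Chow mouse 2), and that on HF/HS from 0.02 (without control HF/HS mouse 5) to 0.19 (without control HF/HS mouse 7).

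All 14 chaperones had a log2 fold change below 0 on HF/HS against chow in controls, with a median of -0.13 and none past the threshold, beside a median of 0.004 and 48.9% of genes below 0 over all genes tested. The values ran from -0.34 for *Creld2*, a secreted disulfide isomerase-like protein, to -0.002 for *Dnajb11*, a BiP co-chaperone. These 14 values are not independent of one another, since the genes rose and fell together from mouse to mouse. Without control HF/HS mouse 5, the lowest mouse for 13 of the 14, and mouse 7, the highest for 8, both chosen after their values were seen, the median was -0.12. With single mice left out it ran from -0.20 (without mouse 7) to -0.05 (without mouse 5), and that of *Hspa5* from -0.28 to -0.12 (the same mice). The chaperone median was -0.08 without control Chow mouse 3 and likewise without control HF/HS mouse 3. In KO mice, 12 of the 14 were below 0 on HF/HS with a median of -0.04, which ran from -0.08 (without KO HF/HS mouse 4) to -0.01 (without KO Chow mouse 4) with single mice left out. For KO against control, 11 of 14 were below 0 on chow (median -0.04) and 9 of 14 above 0 on HF/HS (median 0.03). Neither median kept its sign with every single mouse left out: that on chow was 0.006 without control Chow mouse 3, and that on HF/HS was -0.06 without control HF/HS mouse 5, -0.03 without KO HF/HS mouse 4 and -0.01 without KO HF/HS mouse 1. The 95% intervals of all 14 lay between -0.33 and 0.34 for the genotype under chow, and those under HF/HS lay between -0.37 and 0.62. Under the diet, they lay between -0.81 and 0.22 in controls and between -0.52 and 0.26 in KO mice. A log2 fold change of 1 in either direction lay outside every one of these intervals.

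None of the genes of ER-associated degradation passed the threshold with edgeR in any comparison. This machinery pulls misfolded proteins out of the ER for the proteasome, with the ubiquitin ligase synoviolin (*Syvn1*), its partner *Sel1l*, *Herpud1*, the derlins and the mannosidase-like *Edem1*. Log2 fold changes of the 7 genes on HF/HS against chow had a median of 0.01 in controls and 0.03 in KO mice, and those of KO against control had a median of -0.01 on chow and 0.05 on HF/HS. The 95% intervals in these 4 comparisons were widest for *Derl3*, at -0.85 to 0.41, -0.84 to 0.83, -0.75 to 0.66 and -0.61 to 0.93, and those of the other 6 genes lay between -0.42 and 0.54. *Derl1*, a derlin of the retrotranslocation channel that was singled out after its values were seen, was steadier between mice, at 124 to 149 CPM in chow-fed controls (median 143) and 146 to 170 CPM in controls on HF/HS (median 153). Of the 7 HF/HS mice, 5 were above every chow-fed control, for a log2 fold change of 0.15 (SE 0.05, edgeR adjusted p = 0.0717, DESeq2 adjusted p = 0.0275).

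*Ern1*, which encodes the sensor IRE1alpha (chr11:106394650-106487852, minus strand), rose on HF/HS in controls. It ranged from 40.6 to 54.5 CPM in chow-fed controls (median 43.7) and from 44.5 to 63.5 CPM in controls on HF/HS (median 58.3). In KO mice it ranged from 30.4 to 51.6 CPM on chow (median 44.9) and from 43.4 to 58.6 CPM on HF/HS (median 56.4). In each genotype, 5 of the 7 HF/HS mice were above every chow-fed mouse of that genotype. The log2 fold change was 0.33 in controls (SE 0.08, 95% interval 0.17 to 0.50, edgeR adjusted p = 0.0126, two-sided exact permutation p = 0.00524) and 0.29 in KO mice (SE 0.11, 95% interval 0.05 to 0.53, edgeR adjusted p = 0.146, exact permutation p = 0.0332). The 2 diet effects differed by -0.05 (95% interval -0.34 to 0.24, interaction adjusted p = 0.990), and KO and control did not differ past the threshold on either diet. Without control HF/HS mice 5 and 7 the fold change in controls was 0.28 and the edgeR adjusted p 0.0559, past the threshold no longer. The summed Kupffer cell and macrophage markers ran from 153 to 323 CPM in chow-fed controls and from 189 to 387 in controls on HF/HS, with none of the 8 called. In KO mice they ran from 145 to 222 CPM on chow and from 196 to 325 on HF/HS, with 4 of the 8 called higher (*Adgre1*, *Clec4f*, *Cd5l* and *C1qa*). The summed sinusoidal endothelial markers ran from 165 to 261 CPM in chow-fed controls and from 196 to 329 in controls on HF/HS, with 7 of 8 above 0 on the log2 fold change scale (median 0.34), 5 at an unadjusted p under 0.05 and none called. In KO mice they ran from 139 to 216 CPM on chow and from 181 to 273 on HF/HS (median log2 fold change 0.35), with 2 of the 8 called higher (*Stab2* and *Dnase1l3*). For the 8 stellate cell markers the median log2 fold change was 0.19 in controls, with *Lrat* called lower, and 0.37 in KO mice with none called. The part of these other cells in the *Ern1* values was not tested.

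The other sensors and *Xbp1* did not pass the threshold. *Xbp1*, the transcription factor whose mRNA IRE1alpha splices, had a log2 fold change of 0.18 on HF/HS in controls (95% interval 0.01 to 0.36, edgeR adjusted p = 0.173), with 5 of the 7 HF/HS mice above every chow-fed control and 1 below. In KO mice it was 0.09 (edgeR adjusted p = 0.418). The median over *Ern1*, *Eif2ak3*, *Atf6* and *Xbp1* was 0.12 in each genotype under the diet and lay between -0.04 and -0.01 for the genotype on the 2 diets.

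None of the ATF4 arm passed the threshold with edgeR, and *Asns* and *Chac1* had the largest log2 fold changes of the 33 genes under the diet in controls and the largest spread between mice. *Asns* encodes asparagine synthetase, which ATF4 induces when amino acids run short (chr6:7675169-7693254, minus strand). It ranged from 3.85 to 14.2 CPM in chow-fed controls (median 8.83), from 4.30 to 21.5 in chow-fed KO mice (median 10.8), from 1.75 to 8.10 in controls on HF/HS (median 3.49) and from 2.90 to 15.2 CPM in KO mice on HF/HS (median 7.05). Controls on HF/HS were the low group, with 4 of 7 mice below every chow-fed control and 3 of 7 KO mice above every control on HF/HS. The log2 fold change on HF/HS against chow was -1.03 in controls (SE 0.36, 95% interval -1.80 to -0.26, edgeR adjusted p = 0.0866, exact permutation p = 0.0186) and -0.53 in KO mice (SE 0.43, edgeR adjusted p = 0.509; -0.29 without KO Chow mouse 1 to -0.75 without KO HF/HS mouse 2). For KO against control on HF/HS it was 0.93 (SE 0.41, 95% interval 0.05 to 1.81, edgeR adjusted p = 0.493, exact permutation p = 0.0635). The interaction was 0.50 (95% interval -0.70 to 1.70, edgeR adjusted p = 0.984), or 0.29 without KO HF/HS mouse 2 and 0.75 without KO Chow mouse 1, so neither a diet effect that differed between genotypes nor its absence was shown. The fold change in controls passed the threshold with DESeq2 (adjusted p = 0.0496), without control HF/HS mouse 1 (edgeR adjusted p = 0.0459) and without mouse 7 (0.0487).

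*Atf4*, the transcription factor of the arm (chr15:80255184-80257541, plus strand), ranged from 98.6 to 141 CPM in chow-fed controls (median 119), from 97.3 to 155 in chow-fed KO mice (median 133), from 88.2 to 143 in controls on HF/HS (median 107) and from 91.0 to 120 CPM in KO mice on HF/HS (median 109). The groups overlapped, and KO mice on chow held the highest mouse. Its log2 fold change on HF/HS was -0.28 in KO mice (SE 0.09, edgeR adjusted p = 0.0890, exact permutation p = 0.0286) and -0.10 in controls (edgeR adjusted p = 0.578), the latter -0.17 without control HF/HS mouse 7, -0.18 without mice 5 and 7 and -0.04 without control Chow mouse 6. The value in KO mice passed with DESeq2 (adjusted p = 0.0480) and without KO Chow mouse 6 (edgeR log2 fold change -0.35, adjusted p = 0.0142). *Atf4* is controlled in large part at translation, which mRNA counts do not show.

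*Ddit3* encodes CHOP, a transcription factor linked to cell death under prolonged stress (chr10:127290774-127296288, plus strand; 2 annotated genes of this name overlap there, so its reads could have been split). It ranged from 25.1 to 48.6 CPM in chow-fed controls (median 32.7), from 24.7 to 71.1 in chow-fed KO mice (median 31.8), from 20.1 to 47.0 in controls on HF/HS (median 25.3) and from 18.2 to 52.1 CPM in KO mice on HF/HS (median 34.7). Of the 7 controls on HF/HS, 6 lay between 20.1 and 26.3 CPM, and mouse 7 stood apart at 47.0 CPM. The log2 fold change in controls was -0.47 (SE 0.20, edgeR adjusted p = 0.169, exact permutation p = 0.0507), without mouse 7 it was -0.66 (edgeR adjusted p = 0.0142), and without mice 5 and 7 it was -0.63 (edgeR adjusted p = 0.0372). In KO mice it was -0.15 (edgeR adjusted p = 0.800), and 0.10 without KO Chow mouse 1.

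*Trib3* and *Chac1* are targets of ATF4 and CHOP. TRIB3 is a pseudokinase that feeds back on the pathway, and CHAC1 degrades glutathione. *Trib3* (chr2:152337422-152344032, minus strand) ranged from 4.09 to 8.01 CPM in chow-fed controls (median 6.84), from 3.03 to 11.1 in chow-fed KO mice (median 5.80), from 3.71 to 6.34 in controls on HF/HS (median 4.88) and from 2.41 to 7.31 CPM in KO mice on HF/HS (median 5.41). The groups overlapped, and the log2 fold change on HF/HS was -0.37 in controls (SE 0.16, edgeR adjusted p = 0.157) and -0.36 in KO mice (SE 0.31, edgeR adjusted p = 0.523). The value in KO mice was -0.52 without KO Chow mouse 3 and -0.15 without KO Chow mouse 1, the extremes when 1 mouse was omitted. *Chac1* (chr2:119351229-119354381, plus strand) was the lowest of the 33 genes, with 10 counts in its lowest library. It ranged from 0.270 to 1.53 CPM in chow-fed controls (median 0.569), from 0.255 to 2.29 in chow-fed KO mice (median 0.407), from 0.264 to 1.94 in controls on HF/HS (median 1.49) and from 0.380 to 2.22 CPM in KO mice on HF/HS (median 0.807). Its log2 fold change on HF/HS in controls was opposite in sign to those of the other 4 genes, at 0.86 (SE 0.40, edgeR adjusted p = 0.194, exact permutation p = 0.105), and in KO mice it was 0.32 (SE 0.57, edgeR adjusted p = 0.785), -0.03 without KO HF/HS mouse 1 and 1.01 without KO Chow mouse 1. Over the 5 genes, the median was -0.37 in controls and -0.28 in KO mice under the diet, and 0.17 on chow and 0.07 on HF/HS for KO against control, with none of the 5 past the threshold by edgeR. The genotype medians did not hold their sign: that on chow was -0.14 without KO Chow mouse 1, and that on HF/HS was -0.04 without KO HF/HS mouse 1 and -0.001 with limma voom. The diet median in KO mice was -0.15 without KO Chow mouse 1.

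**Figure D3:**
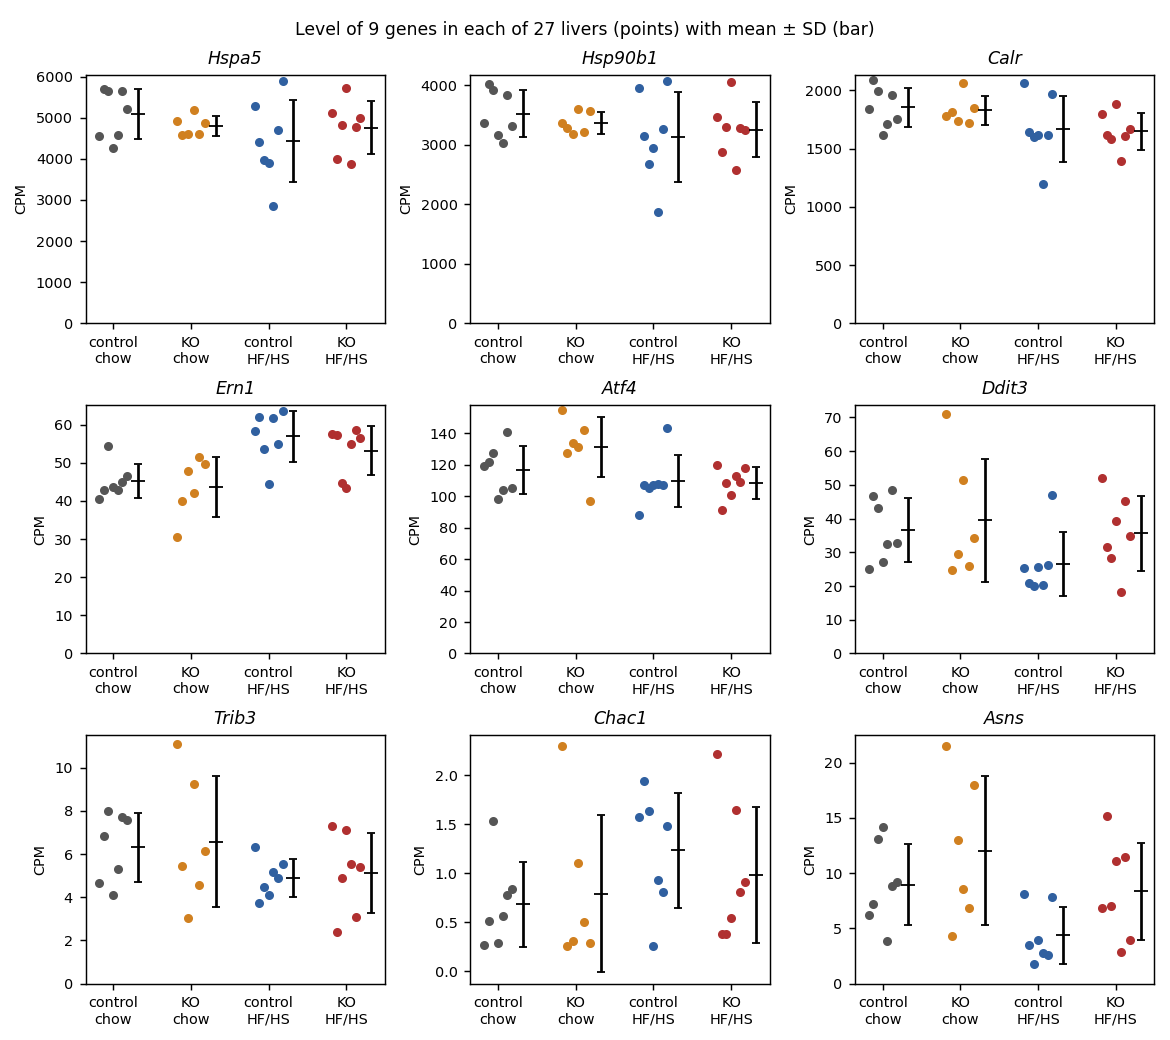
CPM of 3 chaperones (*Hspa5*, *Hsp90b1* and *Calr*), the sensor *Ern1* and the 5 genes of the ATF4 arm in each liver (points) of the 4 groups, with mean and SD (horizontal mark and bar). *Ern1* has a median of 58.3 CPM in controls on HF/HS and 43.7 CPM in chow-fed controls, the median of *Asns* is lowest in controls on HF/HS, and for all 9 genes the points overlap in each of the 4 comparisons of 2 groups.

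The last pair of members serves cargo entry into the ER. *Rrbp1*, which encodes the ribosome-binding protein p180 of the rough ER (chr2:143947395-144011263, minus strand), was singled out after its values were seen, because it was the 1 member of 33 whose groups did not overlap in a comparison. It ranged from 614 to 680 CPM in chow-fed controls (median 652) and from 705 to 766 CPM in chow-fed KO mice (median 735), so that all 6 KO mice were above all 7 controls. Among all genes tested on chow, 0.125% had groups that did not overlap. The log2 fold change was 0.18 (SE 0.04, 95% interval 0.09 to 0.27), which did not pass with edgeR (unadjusted p = 0.000792, adjusted p = 0.801) and passed with DESeq2 (adjusted p = 8.21e-05, with 1993 genes given an adjusted p, and 0.000559 without independent filtering). The exact permutation p of 0.000583 is the smallest these group sizes allow. It follows from groups that do not overlap, for which the gene was picked, and so adds no support. In the same comparison the summed hepatocyte markers ran from 89881 to 103421 CPM in chow-fed KO mice and from 79486 to 94384 in chow-fed controls. Gene by gene, 5 of the 7 hepatocyte markers were above 0 and 2 below (median log2 fold change 0.05), with 0 called. Of the markers of other cells, 8 of 8 Kupffer cell, 6 of 6 leukocyte and 7 of 8 sinusoidal endothelial genes tested had log2 fold changes below 0 (medians -0.27, -0.19 and -0.21), and none was called. Cholangiocyte genes went the other way, with 5 of 6 above 0 (median 0.11). Stellate cell genes were mixed, with 3 of 8 above 0 (median -0.06), and none of either list was called. The summed levels in chow-fed KO mice and controls were 145 to 222 and 153 to 323 CPM for Kupffer cells, 6.04 to 9.96 and 6.48 to 12.9 for leukocytes, and 139 to 216 and 165 to 261 CPM for endothelial cells. Their part in the *Rrbp1* values was not tested. On HF/HS, *Rrbp1* lay between 641 and 910 CPM in the controls and between 722 and 871 CPM in the KO mice, the groups overlapped, and the log2 fold change was 0.14 (edgeR adjusted p = 0.595). Under the diet in controls, the log2 fold change of *Rrbp1* was of similar size, at 0.16 (95% interval 0.02 to 0.30, edgeR adjusted p = 0.147). There, 5 of the 7 HF/HS mice were above every chow-fed control. In KO mice the diet value was 0.12. For the other comparisons, the members with groups that did not overlap numbered 0 of 33, beside 3.53% of all genes for the diet in controls, 3.01% for the diet in KO mice and 0.0812% for the genotype on HF/HS. *Sec61b*, a subunit of the translocon channel, had a log2 fold change between -0.25 and 0.08 in the 4 comparisons of 2 groups and did not pass in any.

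Other genes of these pathways, taken from 7 further lists, passed the threshold in small numbers, all under the diet, where 10.5% of all genes passed in controls and 5.89% in KO mice. Under the diet in controls, 1 of 24 other ER chaperones rose (*Qsox1*, a sulfhydryl oxidase, 480 ± 28.0 to 610 ± 86.3 CPM, SD, n = 7 each, edgeR adjusted p = 0.00775) and 2 of 21 other degradation genes fell (*Erlec1* and *Rnf139*, log2 fold changes of -0.18 and -0.15). Among 20 glycosylation genes *Uggt2*, a folding sensor for glycoproteins, fell by 0.39 on the log2 scale. Of 36 tested genes on the list of other ATF4 and integrated stress response targets, 4 fell and none rose, a share near that of all genes. These were *Ddit4*, an inhibitor of mTORC1 (15.2 ± 2.56 to 6.98 ± 2.57 CPM, log2 fold change -1.13, SE 0.20, edgeR adjusted p = 0.00191), *Gdf15*, a stress cytokine (-0.96), *Cth*, which makes cysteine (507 ± 98.8 to 302 ± 51.7 CPM, -0.75), and *Slc3a2*, the heavy chain of amino acid transporters (-0.20). Among 18 other stress sensing genes, *Eif2ak2* (PKR, 0.57) and *Mbtps1* (the protease that cuts ATF6, 0.20) rose and *Eif2ak4* (GCN2, the sensor of amino acid shortage) fell by 0.19 on the log2 scale. None of 23 translocation genes and none of 16 cytosolic heat-shock genes passed with edgeR, with 1 and 2 of them at an unadjusted p under 0.05 (25.4% of all genes).

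In KO mice on HF/HS, *Ddit4* fell in the same direction (19.7 ± 3.04 CPM, n = 6, to 9.19 ± 1.79, n = 7, log2 fold change -1.10, edgeR adjusted p = 0.000194), and *Gpt2*, an alanine aminotransferase, fell by 0.37 on the log2 scale, 2 of 36 in all. *Eif2ak2* rose (0.51, edgeR adjusted p = 0.00337). *Fkbp2* (1 of 24 other chaperones), *Os9* (1 of 21 degradation genes), *Alg5* and *Dpagt1* (2 of 20 glycosylation genes) fell, with log2 fold changes between -0.25 and -0.18. Translocation and heat-shock genes passed in 0 of 23 and 0 of 16 with edgeR (3 and 1 at an unadjusted p under 0.05, beside 22.4% of all genes). No gene of the 7 lists passed for KO against control on either diet or for the interaction.

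Between mice of the same group, the chaperones rose and fell together. After the group mean was removed, *Hspa5* correlated with each of the other 13 chaperones over the 27 mice, with Pearson r from 0.70 to 0.96 and a median of 0.91. It was highest for *Hsp90b1* (r = 0.96, Spearman rho = 0.91, permutation p = 1e-05 for both, the smallest that 100000 permutations within groups can give). All 13 passed after Benjamini-Hochberg adjustment over the 47 relations computed. The genes share their libraries and scaling, and over all 13931 other genes the median r with *Hspa5* was -0.004 and 0.711% reached the lowest value of a chaperone. Without the 2 mice farthest from the median of *Hspa5*, control HF/HS mice 5 and 7, the 13 values ran from 0.58 to 0.93. On chow alone they were 0.36 (*Canx*) or higher, and on HF/HS alone 0.74 (*Dnajb9*) or higher.

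The 7 degradation genes followed, with r from 0.44 (*Derl2*) to 0.82 (*Syvn1*), and all passed. Of the 4 sensors and factors, *Xbp1* passed by Pearson r and not by rho (r = 0.63, adjusted permutation p = 0.0197; rho = 0.35, adjusted permutation p = 0.128), but the relation rests on control HF/HS mice 5 and 7, and r was 0.22 without them. *Eif2ak3* passed by rho and not by r (rho = 0.48, adjusted permutation p = 0.0412; r = 0.44, adjusted permutation p = 0.0835, and 0.54 without mice 5 and 7). *Atf6* passed by neither (r = 0.35, rho = 0.45, and r = 0.51 without mice 5 and 7). *Ern1*, the gene that rose under the diet, did not correlate with *Hspa5* past the threshold (r = 0.01, permutation p = 0.954). In the ATF4 arm, *Ddit3* (r = 0.65, rho = 0.73) and *Trib3* (r = 0.46, rho = 0.63) passed, and *Atf4* (r = 0.30), *Asns* (r = 0.38) and *Chac1* (r = 0.31) did not. *Rrbp1* passed (r = 0.72), and *Sec61b* (r = 0.44) and *Ppp1r15a* (r = 0.12) did not. The share of all genes that pass was not computed. A positive r with *Hspa5* was not particular to the members. In the further lists the median r was 0.60 for other ER chaperones, 0.58 for glycosylation, 0.56 for translocation and 0.49 for cytosolic heat-shock genes. It was 0.43 for other ATF4 targets, 0.36 for other degradation genes and 0.23 for other stress sensing genes. Of the 20 genes whose within-group pattern was most like that of *Hspa5*, by Pearson r over 27 mice among 13931 genes, 12 were members, 11 of them chaperones and the other *Syvn1*. Among the other 8 were *Nars* and *Wars*, aminoacyl-tRNA synthetases on the list of other ATF4 targets (r = 0.86 for each), and *Rpn1*, a subunit of oligosaccharyltransferase (r = 0.82), all singled out after their values were seen.

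**Figure D4:**
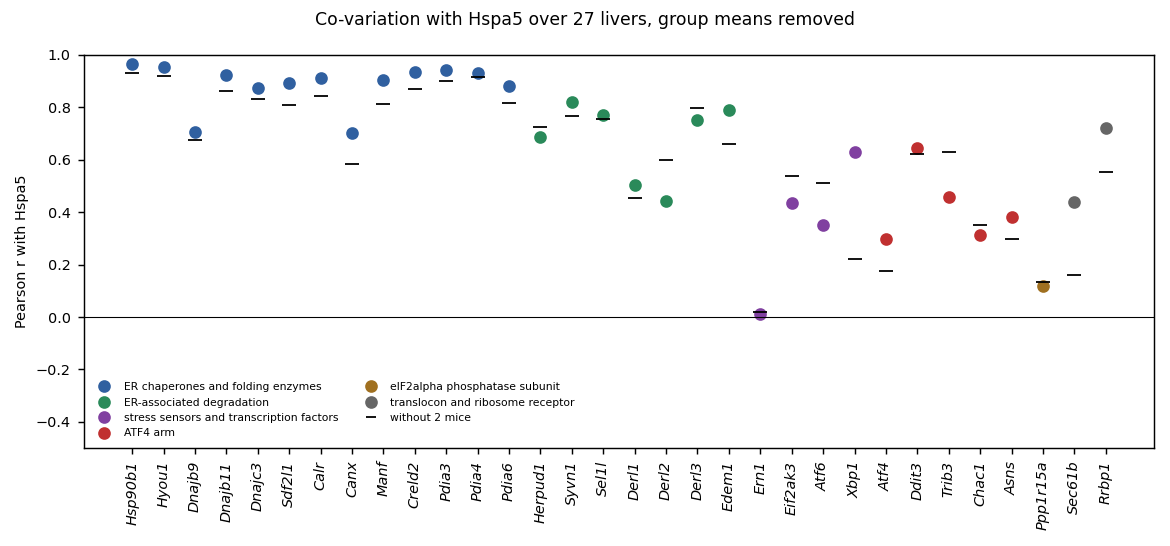
Pearson r of 32 genes with *Hspa5* over 27 livers after removing group means (points, colored by role), and the same r without control HF/HS mice 5 and 7 (black marks). All chaperones are at 0.70 or higher, *Ern1* is near 0, and *Xbp1* falls from 0.63 to 0.22.

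The 7 pairs tested within the ATF4 arm were those that include *Atf4* or *Asns*, and 1 of them passed. The pairs among *Ddit3*, *Trib3* and *Chac1* were not tested. *Atf4* correlated with *Ddit3* at r = 0.46 (adjusted permutation p = 0.0513), with *Chac1* at 0.44 (0.0614), with *Trib3* at 0.31 and with *Asns* at -0.11, and none of these passed. Without KO Chow mouse 1 and control HF/HS mouse 7 these r values were 0.22, 0.35, 0.20 and -0.42, in the same order. *Asns* followed *Ddit3* (r = 0.54, rho = 0.48, adjusted permutation p = 0.0191, and r = 0.46 without control HF/HS mouse 3 and KO Chow mouse 1), but not *Trib3* or *Chac1* (r = 0.03 for each). The spread between mice of 1 group was also unequal. The within-group SD of log2 CPM was 0.96 for *Chac1* (higher than that of 99.4% of genes), 0.80 for *Asns*, 0.70 for *Derl3*, 0.50 for *Trib3* and 0.48 for *Ddit3*, beside a median of 0.22 for the chaperones and 0.18 for all genes. *Derl1* and *Derl2* were the steadiest, at 0.09 and 0.10.

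Some mice were the highest or lowest for many of the 33 genes. Control HF/HS mouse 7 was the highest of all 27 for 16 of the 33 genes, 8 of them chaperones, and its summed acute phase mRNAs were 38405 CPM against 16812 to 30683 in the other 26 mice. Its summed Kupffer and macrophage markers, 387 CPM, were also the highest. Control HF/HS mouse 5 was the lowest for 15 genes, 13 of them chaperones, with *Hspa5* at 2852 CPM. KO Chow mouse 1 was the highest for 8 genes, all 5 of the ATF4 arm among them, with *Ddit3* at 71.1 and *Asns* at 21.5 CPM. In that mouse the summed fed-state mRNAs (lipogenic genes and glucokinase) were 861 CPM, against 1135 to 2329 CPM in the others, and *Ern1* was the lowest of all mice at 30.4 CPM. The part of these other mRNAs in the values of the members was not tested mouse by mouse. Over the 27 mice, *Hspa5* correlated within groups with the acute phase list at r = 0.39 (adjusted permutation p = 0.155), with the fed-state list at -0.26, with the fasted-state list at -0.17 and with the share of unnamed counts at 0.10, and none passed.

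**Figure D5:**
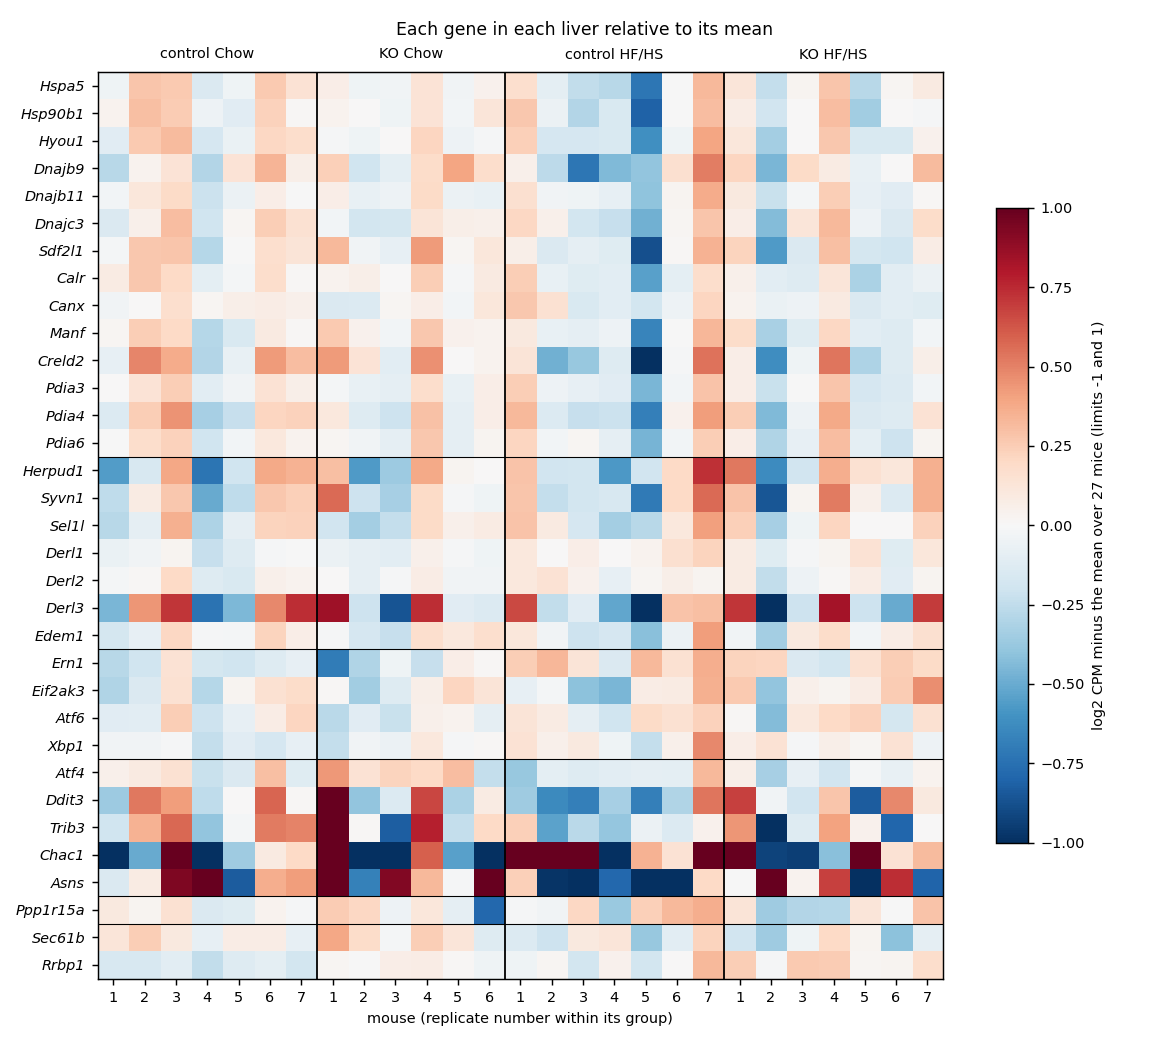
Log2 CPM of the 33 genes (rows, grouped by role) in each of the 27 livers (columns, by group and replicate number), relative to the mean of the gene over all mice; red is higher and blue is lower, limited at -1 and 1. Chaperone rows share their color within a mouse, with control HF/HS mouse 5 lowest and mouse 7 high, and KO Chow mouse 1 is high across the ATF4 arm.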

How the data were processed

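Liver mRNA of 27 mice was profiled from stranded, paired-end libraries. The authors aligned reads to GRCm38 (mm10) with HISAT2 and deposited raw gene counts, made with featureCounts 1.6.3 per the submitters' processing notes. The annotation and the strand setting of the counting are not given in the sources used here, so reads of overlapping genes may have been shared or split. Of 27179 table entries, 3886 had no gene name and entered neither library sizes nor tests, and 191 entries of 89 repeated symbols were summed.

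From the counts, edgeR 4.0.16 (TMM, filterByExpr with a minimum count of 10, robust quasi-likelihood) was run on the mice of each comparison, with Benjamini-Hochberg adjustment over all genes tested and a threshold of 0.05. The study names its analysis platform and not its test. All 33 genes passed the filter. CPM values used TMM library sizes. Lengths per kb were exon bases of GENCODE vM21 on GRCm38, whose coordinates are printed for genes. Permutation tests of single genes were exact and two-sided, on log2 CPM with a prior count of 2. Correlations used 100000 permutations within groups. Alternatives were DESeq2 1.42.0, limma 3.58.1 (voom), other scaling and filters, each mouse left out, a replicate block and a fit of all mice. DESeq2 without independent filtering and the omission of both control HF/HS mice 5 and 7 were added after results were seen. The scripts were tested on simulated data. No 2 libraries of a group differed by as little as sampling noise (lowest chi-square per gene 17.3 over 78 pairs). The labels do not say whether mice shared litters or cages, and p-values measure the spread between these mice. Genes described by mouse were those past the threshold with edgeR, the ATF4 arm and *Hspa5*; *Derl1*, *Xbp1* and *Rrbp1* were added after their values were seen; of the pathway lists, those called are named. The members and lists were chosen with earlier results of these data known.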

Additional observations from a re-analysis of the deposited data

Results flagged for a closer look

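Of 132 combinations of gene and group, 7 had 1 mouse far from the others of its group by Dixon's ratio, and chance flags about 1 in 20. KO Chow mouse 4 was highest for *Hyou1* (1331 CPM, the other 5 mice at 1109 to 1150), *Calr* (2062 CPM against 1722 to 1847) and *Pdia6* (583 CPM against 454 to 494), 3 chaperone genes that vary together. Control HF/HS mouse 7 was highest for *Atf4* (143 CPM, the other 6 at 88.2 to 108), *Ddit3* (47.0 CPM against 20.1 to 26.3) and *Rrbp1* (910 CPM against 641 to 752). Control Chow mouse 3 was highest for *Ern1* (54.5 CPM, the other 6 at 40.6 to 46.5). The summed acute phase mRNAs of KO Chow mouse 4 were 30683 CPM, the highest of its group, and those of control HF/HS mouse 7 were the highest of all mice. Their part in these values was not tested.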

How the results depend on the processing

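Of the 33 genes, the number past the threshold under the diet in controls was 1 with edgeR and 3 with DESeq2, with or without independent filtering, and 1 to 3 with single mice left out. Without control HF/HS mouse 1 it was 2 (*Ern1*, *Asns*), without mouse 4 it was 2 (*Ern1*, *Derl1*) and without mouse 7 it was 3 (*Ern1*, *Ddit3*, *Asns*). Of all genes tested, 1125 of 13584, 1780 of 13584 and 1430 of 13592 passed in these settings, respectively. Without both mice 5 and 7 it was 1, *Ddit3* in place of *Ern1*, beside 1057 of all 13652 genes. In KO mice it was 0, but 1 (*Atf4*) with both DESeq2 settings and 0 to 1 with single mice left out, the 1 being without KO Chow mouse 6 (783 of all 13669 genes). For KO against control on chow it was 0, but 1 (*Rrbp1*) with both DESeq2 settings. On HF/HS and for the interaction it was 0 under every alternative run. Some log2 fold changes, none of them past the threshold, changed sign. With limma voom, KO against control on chow was -0.022 for *Trib3* and -0.070 for *Chac1*, and on HF/HS it was -0.0013 for *Trib3*. For *Atf4* on HF/HS, KO against control was 0.0026 with upper-quartile scaling and 0.071 without control HF/HS mice 5 and 7. The interaction for *Trib3* was -0.0012 with both DESeq2 settings, -0.0025 with upper-quartile scaling and -0.0017 with at least 10 counts in every library, and for *Ern1* it was 0.012 without mice 5 and 7. With single mice left out, the diet values in KO mice ran -0.062 to 0.025 for *Hspa5*, -0.27 to 0.10 for *Ddit3*, -0.029 to 1.01 for *Chac1*. KO against control on chow ran -0.10 to 0.036 for *Ern1*, -0.14 to 0.23 for *Ddit3*, -0.15 to 0.22 for *Trib3*, -0.49 to 0.54 for *Chac1*, and on HF/HS -0.057 to 0.064 for *Atf4*, -0.044 to 0.19 for *Trib3*. The interaction ran -0.13 to 0.0091 for *Ern1*, -0.14 to 0.22 for *Trib3*, -0.88 to 0.15 for *Chac1*. The cause of these changes was not tested. *Ern1* in controls on HF/HS stayed between 0.31 and 0.39 with any 1 mouse left out (adjusted p 0.00133 to 0.0298).

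The labels do not say whether mice of the same replicate number were paired. Deviations of same-numbered mice correlated at -0.23 to 0.09, -0.15 to 0.27, -0.15 to 0.37 and -0.25 to 0.29 in the 4 comparisons of 2 groups. With the replicate block, 774 genes passed under the diet in controls against 1424 without it, and 602 against 802 in KO mice. The members past the threshold were 1 (*Ern1*, adjusted p = 0.0415), 0, 0, 0 and 0 with the block. DESeq2 called 1939, 1401, 13, 55 and 0 genes in the 5 comparisons, against 1424, 802, 1, 2 and 0 with edgeR, and 10 on chow without independent filtering. The fit of all 27 mice called 1163 genes under the diet in KO mice. Counts limit *Chac1*, with 10 in its lowest library, more than the chaperones, and with 6 or 7 mice a group the intervals of *Chac1* and *Asns* include differences of more than 1 on the log2 scale in each comparison.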
